A study of Saccharomyces cerevisiae with 12 samples.

Results

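The genes described here are 10 members of the glucose uptake and sensing machinery of *Saccharomyces cerevisiae*, chosen by name among the 6302 genes of a 5PSeq count table: the hexose transporters *HXT1*, *HXT2*, *HXT3*, *HXT4* and *HXT5*, the glucose sensors *RGT2* and *SNF3*, the corepressor *MTH1* and the hexokinases *HXK1* and *HXK2*. Yeast takes up glucose by facilitated diffusion through Hxt transporters that differ in affinity. Which transporters are made is set by Rgt2 and Snf3, transporter-like membrane proteins that bind external glucose and trigger the destruction of Mth1, a partner of the repressor Rgt1, so that *HXT* promoters are released. Hexokinases then phosphorylate the sugar for glycolysis, and Hxk2, the main form in glucose-grown cells, also takes part in glucose repression.

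5PSeq sequences mRNA fragments that carry a 5′ phosphate, which are intermediates of decay, and many of them come from 5′ to 3′ degradation behind the last translating ribosome. Libraries came from 4 haploid *MAT*a strains of the BY4741 background, with 3 replicates each, grown in rich glucose medium (YPD) at 30°C with shaking at 200 rpm. All strains carry *his3*Δ1, *leu2*Δ0 and *ura3*Δ0. The *ncs2*Δ*elp6*Δ*hel2*Δ strain has *ncs2*Δ::*HIS3MX*, *elp6*Δ::*URA3* and *hel2*Δ::*LEU2*, the *ncs2*Δ*elp6*Δ strain has the first 2 of these, the *hel2*Δ strain has *hel2*Δ::*LEU2*, and the wild type has none of them but is also listed with *met15*Δ0, so that the markers change together with the deletions. Ncs2 (Urm1 pathway) and Elp6 (Elongator) are needed to modify the wobble uridine, U34, of certain tRNAs, and Hel2 is the E3 ubiquitin ligase that recognises collided ribosomes and starts ribosome-associated quality control (RQC). The comparisons ask how reads change when U34 modification, Hel2 or both are lost.

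The libraries held 104202 to 415323 assigned reads (median 215411.5), and the 8 members that passed the filter on low counts had a median of 20 reads per library, so single values are imprecise. Levels are given in CPM, reads scaled to a common library size after TMM normalization. The deleted genes were low where the labels say so, summed over 3 libraries: *NCS2* had 2 reads in *ncs2*Δ*elp6*Δ*hel2*Δ and 0 in *ncs2*Δ*elp6*Δ, against 15 in *hel2*Δ and 18 in wild type. *ELP6* had 10 reads in *ncs2*Δ*elp6*Δ*hel2*Δ and 4 in *ncs2*Δ*elp6*Δ, against 20 each in *hel2*Δ and wild type, and *HEL2* had 5 reads in *ncs2*Δ*elp6*Δ*hel2*Δ and 8 in *hel2*Δ, against 89 in *ncs2*Δ*elp6*Δ and 48 in wild type. Of the marker genes, *URA3* had at most 1 read in any library, also where the labels give *elp6*Δ::*URA3*, and the reason was not tested. *LEU2* had 7 reads in *ncs2*Δ*elp6*Δ*hel2*Δ and 10 in *hel2*Δ, against 1 each in *ncs2*Δ*elp6*Δ and wild type. *HIS3* averaged 22.8 CPM in *ncs2*Δ*elp6*Δ*hel2*Δ and 25.1 in *ncs2*Δ*elp6*Δ, against 14.6 in *hel2*Δ and 17.3 in wild type. Summed reads of 7 *MAT*a marker genes were 107 to 612 per library, and those of 3 *MAT*α genes 5 to 30. Of the 4 *MAT*a markers tested, 3 were called lower in *ncs2*Δ*elp6*Δ than in wild type, as were 16.7% of all genes tested. These were *STE2* at -0.81, *STE6* at -0.78 and *BAR1* at -1.26 on the log2 scale, and their part in the results below was not tested.

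All 10 members matched a RefSeq gene of the R64 assembly, the sequence of the sacCer3 build that the reads were mapped to, and none overlaps another annotated gene. *HXT4*, *HXT1* and *HXT5* lie next to each other on chromosome VIII, at 287081 to 288811, 290913 to 292625 and 294669 to 296447. The gap between *HXT4* and *HXT1* is 2101 bp and holds 1 annotated gene, and the gap between *HXT1* and *HXT5* is 2043 bp and holds none. Chromosome IV carries *SNF3* (111580 to 114234), *RGT2* (213351 to 215642), *MTH1* (1014401 to 1015702) and *HXT3* (1162957 to 1164660). *HXT2* is on chromosome XIII (288079 to 289704), *HXK1* on VI (253592 to 255049) and *HXK2* on VII (23935 to 25395).

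In the *ncs2*Δ*elp6*Δ strain, which lacks U34 modification, 3 of the 8 members tested carried fewer 5PSeq reads than in wild type, where 30.1% of all genes tested were called and 16.7% were called lower: *HXT1*, the low-affinity transporter of high-glucose cells, *SNF3*, the sensor for low glucose, and *HXK2*. *HXT1* was at 0.316, *SNF3* at 0.33 and *HXK2* at 0.589 of the wild-type level in *ncs2*Δ*elp6*Δ. With Hel2 lost as well, in *ncs2*Δ*elp6*Δ*hel2*Δ, *HXK2* was at 0.584 of the wild-type level, while *HXT1* was at 0.7 and *SNF3* at 0.591 and neither passed the test. The sensor *RGT2*, the transporters *HXT2* and *HXT3*, *MTH1* and *HXK1* passed the test in none of the comparisons. Reads reflect both how much mRNA there was and how much of it was being degraded, and these cannot be told apart in 5PSeq counts alone.

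The sensors differed in which strains had the most reads. *SNF3*, whose product is the sensor with high affinity for glucose, had 80.7, 85.1 and 146 CPM in the *ncs2*Δ*elp6*Δ*hel2*Δ libraries and 31.9, 78.3 and 60.4 CPM in the *ncs2*Δ*elp6*Δ libraries, against 262, 273 and 125 CPM in *hel2*Δ and 163, 219 and 153 CPM in wild type. All 3 *ncs2*Δ*elp6*Δ libraries were below all 3 wild-type libraries, and the highest *ncs2*Δ*elp6*Δ*hel2*Δ library lay between the lowest *hel2*Δ library and the wild-type ones. The log2 fold change of *SNF3* in *ncs2*Δ*elp6*Δ against wild type was -1.60 (SE 0.35, adjusted p = 9.42e-04, edgeR quasi-likelihood test), from means of 56.8 ± 23.4 and 178 ± 35.5 CPM (SD, n = 3 each). Benjamini-Hochberg adjustment was over the 3378 genes tested in the fit of all libraries, as for each edgeR adjusted p of that fit. Fits of fewer libraries or with another filter were adjusted over the genes that they tested. Against *hel2*Δ, the *ncs2*Δ*elp6*Δ*hel2*Δ level was at -1.02 (SE 0.33, adjusted p = 0.0388), although the libraries overlapped, and leaving out any of *hel2*Δ replicates 1 and 2 or *ncs2*Δ*elp6*Δ*hel2*Δ replicates 1 and 2 ended the call, with adjusted p-values of 0.224, 0.128, 0.0893 and 0.202. Against wild type, *SNF3* in *ncs2*Δ*elp6*Δ*hel2*Δ was at -0.76 (SE 0.33, adjusted p = 0.15), with all 3 libraries below the wild type, and without *ncs2*Δ*elp6*Δ*hel2*Δ replicate 3 it was at -1.07 (adjusted p = 0.0421). That was the 1 call among 6 fits without 1 library, whose values reached -0.57 (adjusted p up to 0.46). Of 7 other settings, 0 called this difference.

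*RGT2*, the low-affinity sensor for high glucose, had 121, 138 and 97.3 CPM in *ncs2*Δ*elp6*Δ*hel2*Δ and 215, 202 and 181 CPM in *ncs2*Δ*elp6*Δ, against 92.8, 102 and 104 CPM in *hel2*Δ and 200, 109 and 204 CPM in wild type. The *hel2*Δ libraries were all below the wild-type ones, and the *ncs2*Δ*elp6*Δ*hel2*Δ libraries were all below those of *ncs2*Δ*elp6*Δ. Neither difference passed the test: *RGT2* was at -0.79 in *hel2*Δ against wild type (SE 0.29, adjusted p = 0.98, unadjusted p = 0.011, edgeR). Between *ncs2*Δ*elp6*Δ*hel2*Δ and *ncs2*Δ*elp6*Δ it was at -0.72 (SE 0.25, adjusted p = 0.0828), and without *ncs2*Δ*elp6*Δ*hel2*Δ replicate 2, the deepest library, it was at -0.96 (adjusted p = 0.0385). That was the 1 call among 6 fits without 1 library, whose values reached -0.58 (adjusted p up to 0.44). Of 7 other settings, 0 called this difference. The *RGT2* difference of *ncs2*Δ*elp6*Δ against wild type was 0.21 (SE 0.24, adjusted p = 0.562), less than the spread between the wild-type libraries.

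Put as a share of the reads of both sensors, *RGT2* took 72 to 87.1% in the *ncs2*Δ*elp6*Δ libraries against 33.3 to 57.1% in the wild-type libraries. It took 40 to 61.8% in *ncs2*Δ*elp6*Δ*hel2*Δ and 26.2 to 45.5% in *hel2*Δ. Over the 3 libraries of a strain, 97 of 177 sensor reads came from *RGT2* in *ncs2*Δ*elp6*Δ*hel2*Δ (54.8%, exact binomial 95% interval 47.2 to 62.3%) and 166 of 215 in *ncs2*Δ*elp6*Δ (77.2%, 71 to 82.6%). In *hel2*Δ, 46 of 142 came from *RGT2* (32.4%, 24.8 to 40.8%), and in wild type 88 of 177 (49.7%, 42.1 to 57.3%). These intervals cover counting error only, and the difference in share between strains was not tested. *RGT2* and *SNF3* were the pair of tested members whose levels ran most strongly in opposite directions over the 12 libraries (Pearson r = -0.61 on log2 CPM), a description of points that share 4 strains.

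**Figure D1:**
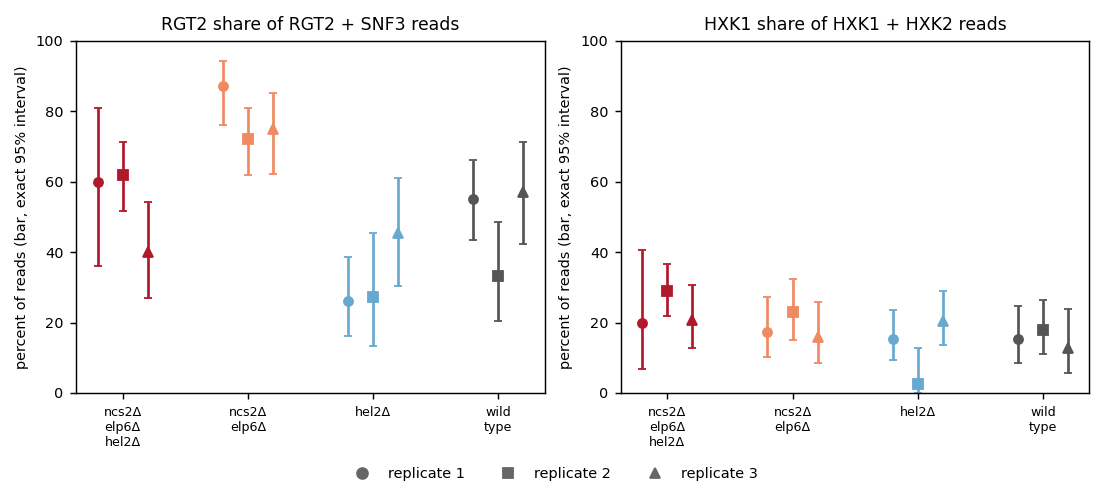
Share of reads, in percent, taken by *RGT2* among the reads of both sensors (left) and by *HXK1* among the reads of both hexokinases (right), 1 point per library with its exact binomial 95% interval, for *ncs2*Δ*elp6*Δ*hel2*Δ, *ncs2*Δ*elp6*Δ, *hel2*Δ and wild type. The 3 *ncs2*Δ*elp6*Δ libraries, at 72 to 87.1%, sit above all other libraries for *RGT2*. For *HXK1*, the *ncs2*Δ*elp6*Δ*hel2*Δ libraries (20 to 28.8%) lie above the wild-type ones (12.9 to 17.8%), a difference that was not tested. The *HXK1* shares of all other pairs of strains overlap.

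*MTH1*, which encodes the corepressor removed in response to sensor signalling, had 3 to 21 reads per library. Its level was 60.5, 45.8 and 35.4 CPM in *ncs2*Δ*elp6*Δ*hel2*Δ, 39.8, 57.2 and 16.1 CPM in *ncs2*Δ*elp6*Δ, 49.1, 34.1 and 36.4 CPM in *hel2*Δ and 72.6, 34.2 and 51 CPM in wild type. The strains overlapped in each comparison. Its log2 fold changes ran from -0.48 (SE 0.43, *ncs2*Δ*elp6*Δ against wild type) to 0.2 (SE 0.42, *ncs2*Δ*elp6*Δ*hel2*Δ against *ncs2*Δ*elp6*Δ), all within the error of counts this low.

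Among the transporters, *HXT1* differed most between strains. It had 17, 26 and 29 reads in *ncs2*Δ*elp6*Δ*hel2*Δ and 13, 12 and 13 reads in *ncs2*Δ*elp6*Δ, against 18, 5 and 20 in *hel2*Δ and 27, 19 and 27 in wild type. Scaled to library size these were 171, 56.7 and 128 CPM in *ncs2*Δ*elp6*Δ*hel2*Δ, 51.8, 36.1 and 52.3 CPM in *ncs2*Δ*elp6*Δ, 98.3, 56.8 and 104 CPM in *hel2*Δ and 122, 130 and 197 CPM in wild type. The *ncs2*Δ*elp6*Δ libraries lay below every library of the other 3 strains. The log2 fold change in *ncs2*Δ*elp6*Δ against wild type was -1.66 (SE 0.37, adjusted p = 0.00113), from means of 46.7 ± 9.19 and 150 ± 40.8 CPM (SD, n = 3 each). Each of the 6 fits without 1 library of these strains kept the call, with values between -1.75 and -1.42.

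With *HEL2* also deleted, in *ncs2*Δ*elp6*Δ*hel2*Δ against *ncs2*Δ*elp6*Δ, *HXT1* was at 1.15 (SE 0.37, adjusted p = 0.0713), a 2.22-fold difference with no overlap that did not pass the test. The value was highest without 1 library: *ncs2*Δ*elp6*Δ*hel2*Δ replicate 2 had the lowest *HXT1* level of its strain, 56.7 CPM, and without it the log2 fold change was 1.59 (adjusted p = 0.00279). Of the 6 fits without 1 library only this 1 called *HXT1*, and the values ran down to 0.89 (adjusted p up to 0.398). The fit without a filter on low counts gave 1.10 (adjusted p = 0.032), and the fit with the replicate number as a block gave 1.17 (adjusted p = 0.0402). The interaction term, which asks whether deleting *HEL2* changes *HXT1* differently with and without U34 modification, was 1.83 (SE 0.52, adjusted p = 0.178), and without the same library it was 2.26 (adjusted p = 0.00719). That was the 1 call among 12 fits without 1 library, where adjusted p ran up to 0.634. Of 5 other settings, 0 called the interaction. In *hel2*Δ against wild type *HXT1* was at -0.68 (SE 0.36, adjusted p = 0.98) with no overlap between the libraries.

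*HXT2*, a high-affinity transporter, had 141, 98.2 and 124 CPM in *ncs2*Δ*elp6*Δ*hel2*Δ, 111, 90.3 and 72.4 CPM in *ncs2*Δ*elp6*Δ, 104, 56.8 and 104 CPM in *hel2*Δ and 136, 144 and 36.4 CPM in wild type. Wild-type replicate 3, with 5 *HXT2* reads, stood below the other two wild-type libraries, so that the wild type spanned the range of all other libraries. The log2 fold changes of *HXT2* ran from -0.25 (SE 0.34) in *ncs2*Δ*elp6*Δ against wild type to 0.33 (SE 0.33) in *ncs2*Δ*elp6*Δ*hel2*Δ against *ncs2*Δ*elp6*Δ. *HXT3*, a low-affinity transporter like *HXT1*, had 90.8, 76.4 and 97.3 CPM in *ncs2*Δ*elp6*Δ*hel2*Δ and 71.7, 87.3 and 117 CPM in *ncs2*Δ*elp6*Δ. It had 60, 79.5 and 83.3 CPM in *hel2*Δ and 136, 68.4 and 80.1 CPM in wild type, and the libraries overlapped in every comparison. *HXT3* was at -0.11 in *ncs2*Δ*elp6*Δ against wild type (SE 0.30, adjusted p = 0.82).

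The *HXT1* share of transporter reads was lowest in *ncs2*Δ*elp6*Δ. Of the reads of the 5 *HXT* members summed over a strain, *HXT1* took 38 of 192 in *ncs2*Δ*elp6*Δ (19.8%, exact binomial 95% interval 14.4 to 26.1%), against 73 of 187 in wild type (39%, 32 to 46.4%). It took 72 of 233 in *ncs2*Δ*elp6*Δ*hel2*Δ (30.9%, 25 to 37.3%) and 43 of 132 in *hel2*Δ (32.6%, 24.7 to 41.3%). *HXT2* and *HXT3* each took 39.6% in *ncs2*Δ*elp6*Δ (32.6 to 46.9%). In wild type *HXT2* took 29.9% (23.5 to 37.1%) and *HXT3* 27.3% (21 to 34.3%). By library, the *HXT1* share was 16.7 to 21.7% in *ncs2*Δ*elp6*Δ and 30 to 61.4% in wild type, the upper end of which came from the library with few *HXT2* reads. Here too the intervals cover counting error only, and the differences in share were not tested. A share also moves with the reads of the other members, and *HXT2* and *HXT3* themselves were at -0.25 and -0.11 in *ncs2*Δ*elp6*Δ against wild type.

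*HXT4*, a transporter of low-glucose cells, and *HXT5*, best known from slowly growing and stationary cells, were barely read in any strain. *HXT4* had 1, 1 and 0 reads in *ncs2*Δ*elp6*Δ*hel2*Δ, 0 in all 3 *ncs2*Δ*elp6*Δ libraries, 2, 1 and 2 in *hel2*Δ and 1, 0 and 1 in wild type. *HXT5* had 0, 4 and 2 reads in *ncs2*Δ*elp6*Δ*hel2*Δ, 1, 1 and 0 in *ncs2*Δ*elp6*Δ, 2, 1 and 3 in *hel2*Δ and 2, 3 and 0 in wild type. A count of 0 allows up to 3 reads, which is a share of 7.22e-04 to 0.00288% of a library (6.55 to 34.1 CPM), so nearly all of these values lie at or under what 0 reads allow. Both genes failed the low-count filter, were not tested and are given no fold change.

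The hexokinases differed in level, and whether they differed in response was not tested. *HXK2* had 202, 242 and 305 CPM in *ncs2*Δ*elp6*Δ*hel2*Δ and 283, 232 and 258 CPM in *ncs2*Δ*elp6*Δ, against 508, 454 and 484 CPM in *hel2*Δ and 327, 602 and 393 CPM in wild type. Every library of the strains lacking U34 modification was below every library of the strains that have it. *HXK2* was at -0.76 in *ncs2*Δ*elp6*Δ against wild type (SE 0.23, adjusted p = 0.012), from means of 257 ± 25.4 and 441 ± 144 CPM (SD, n = 3 each). The value in *ncs2*Δ*elp6*Δ*hel2*Δ against wild type was -0.78 (SE 0.23, adjusted p = 0.0308), with a mean of 250 ± 52.2 CPM in *ncs2*Δ*elp6*Δ*hel2*Δ. Against *hel2*Δ, which averaged 482 ± 26.7 CPM, the *ncs2*Δ*elp6*Δ*hel2*Δ level was at -0.93 (SE 0.23, adjusted p = 0.01). The differences that *HEL2* deletion made to *HXK2* were small: -0.012 (SE 0.23) in *ncs2*Δ*elp6*Δ*hel2*Δ against *ncs2*Δ*elp6*Δ and 0.15 (SE 0.23) in *hel2*Δ against wild type.

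The calls of *HXK2* against wild type leaned on wild-type replicate 2, its highest library with 602 CPM. Without that library *HXK2* was at -0.48 in *ncs2*Δ*elp6*Δ against wild type (adjusted p = 0.14) and at -0.49 in *ncs2*Δ*elp6*Δ*hel2*Δ against wild type (adjusted p = 0.245). Leaving out *ncs2*Δ*elp6*Δ replicate 2 also ended the call in *ncs2*Δ*elp6*Δ (-0.63, adjusted p = 0.0731), and the call in *ncs2*Δ*elp6*Δ*hel2*Δ against wild type was lost without wild-type replicate 3 and without *ncs2*Δ*elp6*Δ*hel2*Δ replicate 1 or 2 as well, with adjusted p-values of 0.0605, 0.102 and 0.128. Scaling by library totals alone gave -0.50 (adjusted p = 0.0789) in *ncs2*Δ*elp6*Δ and -0.61 (adjusted p = 0.0756) in *ncs2*Δ*elp6*Δ*hel2*Δ, each against wild type. Against *hel2*Δ, the call was lost without *hel2*Δ replicate 1 (-0.89, adjusted p = 0.0502) and without *ncs2*Δ*elp6*Δ*hel2*Δ replicate 2 (-0.91, adjusted p = 0.0581).

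*HXK1*, the hexokinase that cells make mainly on carbon sources other than glucose, had 50.4, 98.2 and 79.6 CPM in *ncs2*Δ*elp6*Δ*hel2*Δ, 59.7, 69.2 and 48.3 CPM in *ncs2*Δ*elp6*Δ, 92.8, 11.4 and 125 CPM in *hel2*Δ and 59, 130 and 58.3 CPM in wild type. The spread within *hel2*Δ, where replicate 2 had a single *HXK1* read, was wider than any difference between strains. Its log2 fold changes ran from -0.43 (SE 0.42) in *ncs2*Δ*elp6*Δ against wild type to 0.48 (SE 0.39) in *ncs2*Δ*elp6*Δ*hel2*Δ against *ncs2*Δ*elp6*Δ. Of the reads of both hexokinases, *HXK1* took 68 of 268 in *ncs2*Δ*elp6*Δ*hel2*Δ (25.4%, exact binomial 95% interval 20.3 to 31%), 50 of 262 in *ncs2*Δ*elp6*Δ (19.1%, 14.5 to 24.4%), 42 of 268 in *hel2*Δ (15.7%, 11.5 to 20.6%) and 40 of 254 in wild type (15.7%, 11.5 to 20.8%). These intervals again cover counting error only, and the shares were not tested.

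**Figure D2:**
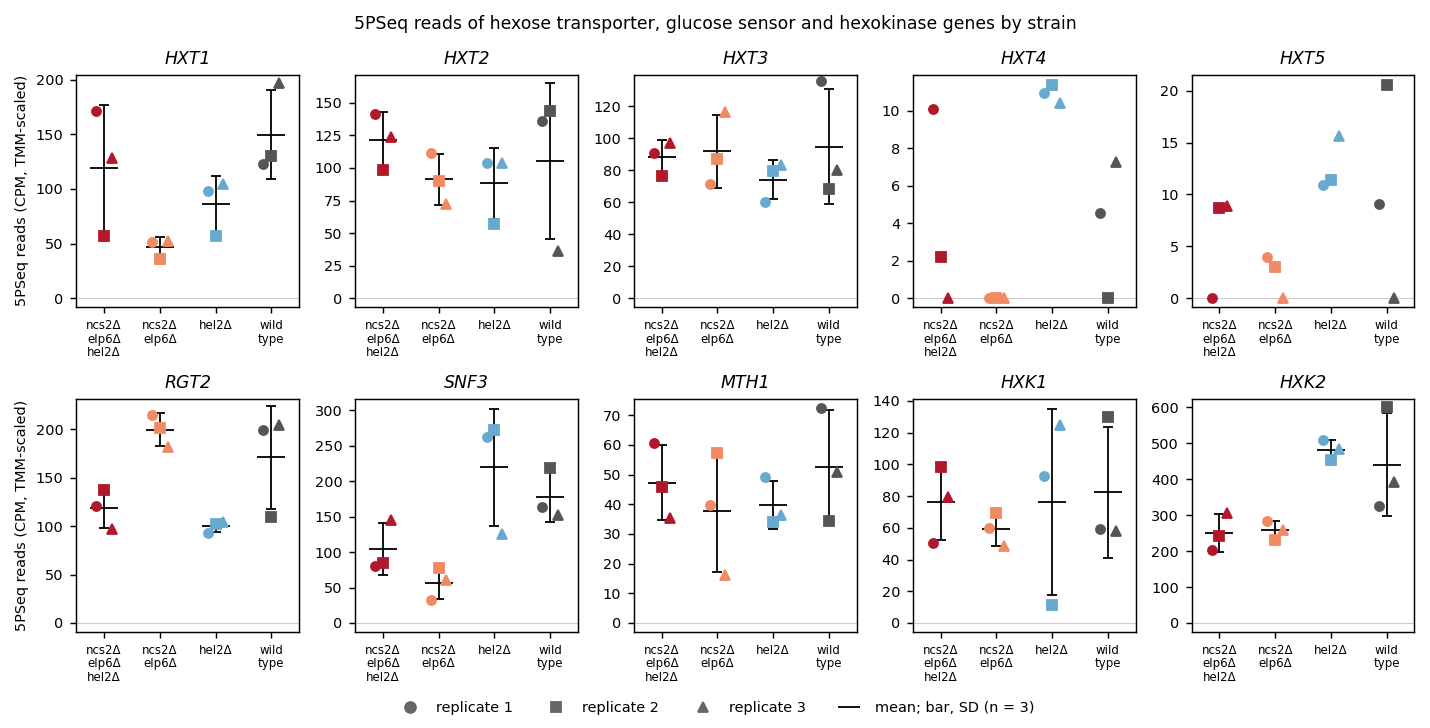
5PSeq reads (CPM, TMM-scaled, y axis, each panel with its own scale) of the 10 genes in *ncs2*Δ*elp6*Δ*hel2*Δ, *ncs2*Δ*elp6*Δ, *hel2*Δ and wild type, 1 point per library with the marker giving the replicate number, and mean ± SD (n = 3) for the 8 genes tested. *HXT1* and *SNF3* are lowest in *ncs2*Δ*elp6*Δ, *HXK2* splits the 6 libraries without U34 modification from the 6 with it, and *HXT4* and *HXT5* stay near 0.

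Counted over the members, 3 of the 8 tested were called in *ncs2*Δ*elp6*Δ against wild type, all 3 lower (30.1% of all genes called, 16.7% lower). With 8 genes the count itself does not set the group apart. The libraries of the same 3 members did not overlap between these strains, as for 43.5% of all genes. The median log2 fold change of the 8 was -0.45, beside 0.042 over all genes. Against wild type, 1 of 8 was called in *ncs2*Δ*elp6*Δ*hel2*Δ (11.1% of all genes) and the libraries of 2, *SNF3* and *HXK2*, did not overlap (26.4% of all genes), with a median of -0.40 beside 0.024 over all genes. For *ncs2*Δ*elp6*Δ*hel2*Δ against *hel2*Δ 2 of 8 were called (14.6% of all genes) and those of 1, *HXK2*, did not overlap (31.9% of all genes), with a median of 0.15 beside 0.052. These comparisons share strains, the wild type entering 2 of them, and are not independent of each other.

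Deleting *HEL2* changed no member past the threshold in the fit of all 12 libraries by strain. *HXT1* was called in *ncs2*Δ*elp6*Δ*hel2*Δ against *ncs2*Δ*elp6*Δ with the replicate number as a block (adjusted p = 0.0402) and without the low-count filter (adjusted p = 0.032), 2 of 6 other settings. For *hel2*Δ against wild type 0 of 8 were called by edgeR and by DESeq2 (0.0888% of all genes by edgeR), 1 of 8, *RGT2*, had an unadjusted p under 0.05 (4.17% of all genes), and the libraries of *HXT1* and *RGT2* did not overlap (10.2% of all genes). For *ncs2*Δ*elp6*Δ*hel2*Δ against *ncs2*Δ*elp6*Δ 0 of 8 were called by edgeR (5.68% of all genes). DESeq2 called 0 with and without its independent filtering of low-count genes. With that filtering *HXT1*, *HXT2*, *HXT3*, *MTH1* and *HXK1* had no adjusted p and so were not tested. By edgeR, *HXT1*, *RGT2* and *SNF3* had an unadjusted p under 0.05 (19% of all genes) and libraries that did not overlap (22.2% of all genes). Of these, *HXT1* and *SNF3* were higher and *RGT2* lower in *ncs2*Δ*elp6*Δ*hel2*Δ. *SNF3* was at 0.84 there (SE 0.36, adjusted p = 0.183). For the interaction term 0 of 8 were called by edgeR (0.0296% of all genes) or by DESeq2 without independent filtering. With that filtering DESeq2 gave none of the 8 an adjusted p, so it did not test them. *HXT1* alone had an unadjusted p under 0.05 by edgeR (9.71% of all genes).

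**Figure D3:**
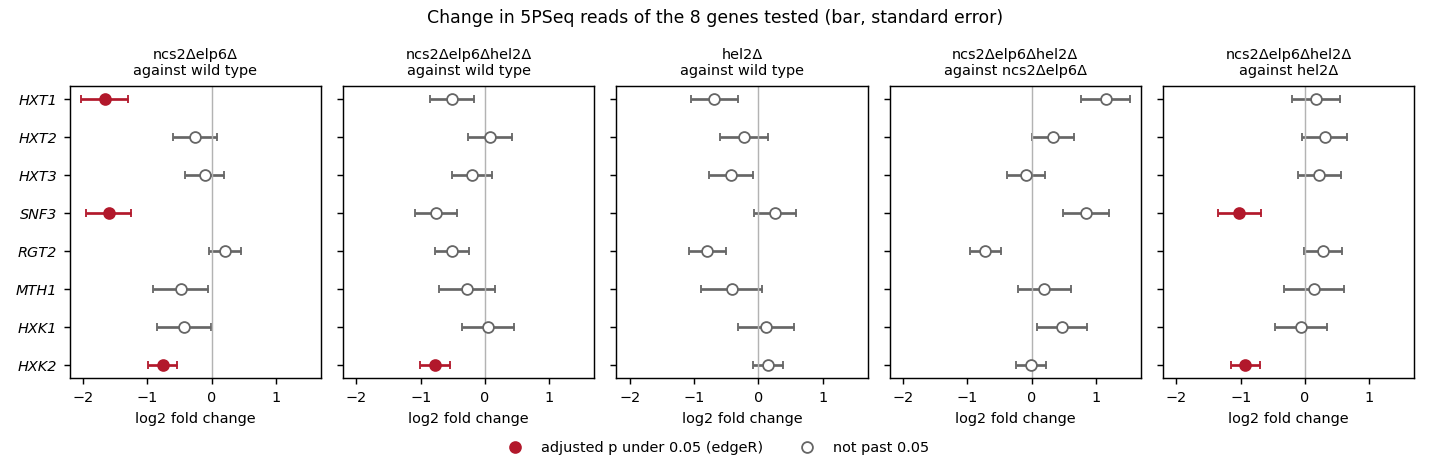
Log2 fold changes (x axis) of the 8 genes tested in 5 comparisons of strains, from the edgeR fit over all 12 libraries, with bars of 1 standard error and filled points for adjusted p under 0.05. The filled points are *HXT1*, *SNF3* and *HXK2* in *ncs2*Δ*elp6*Δ against wild type, *HXK2* in *ncs2*Δ*elp6*Δ*hel2*Δ against wild type, and *SNF3* and *HXK2* in *ncs2*Δ*elp6*Δ*hel2*Δ against *hel2*Δ, all below 0.

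Between genes, levels were compared per kilobase of coding length. *HXK2* was the highest member in each strain, at 171 ± 35.7 CPM per kb in *ncs2*Δ*elp6*Δ*hel2*Δ, 176 ± 17.4 in *ncs2*Δ*elp6*Δ, 330 ± 18.3 in *hel2*Δ and 302 ± 98.4 in wild type (SD, n = 3 each), with no library overlapping the next gene. The second place was held by *HXT2* in *ncs2*Δ*elp6*Δ*hel2*Δ (74.5 ± 13.3 CPM per kb), *RGT2* in *ncs2*Δ*elp6*Δ (86.9 ± 7.44), *SNF3* in *hel2*Δ (82.8 ± 31) and *HXT1* in wild type (87.4 ± 23.8). Of these, *RGT2* in *ncs2*Δ*elp6*Δ stood clear of the next gene, *HXT2* (56.2 ± 12), and the other three overlapped with their neighbours. *SNF3* was the lowest of the 8 tested members in *ncs2*Δ*elp6*Δ (21.4 ± 8.81 CPM per kb), next below *HXT1* (27.3 ± 5.37), whose libraries overlapped those of *SNF3*. In the other 3 strains *MTH1* was the lowest of the 8, at 30.6 to 40.4 CPM per kb. *HXT5* and *HXT4*, at 0 to 7.1 CPM per kb, overlapped each other in each strain, and in *hel2*Δ the libraries of *HXT5* also overlapped those of *HXK1*.

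Among genes that were not members, the levels closest to *SNF3* over the 12 libraries were those of *PHO3* and *ERG26* (Pearson r = 0.96 and 0.95 on log2 CPM). Those closest to *HXK2* were *HMS2* and *RIM4* (r = 0.97 and 0.95), and those closest to *HXT1* were *PEX8* and *PTP3* (r = 0.88 and 0.86). Within the members, *SNF3* and *HXK2* ran most closely together (r = 0.75), while *HXT1* had r = 0.42 with *SNF3* and 0.30 with *HXK2*. The points share 4 strains and their library depth, so these values only describe the pattern.

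Other genes of hexose uptake were mostly too low to test. Of 15 listed (11 further *HXT* genes, *GAL2*, *SUC2*, *GLK1* and *EMI2*), 13 were in the table and 2 were tested. The 9 further *HXT* genes present had 0 to 5 reads per library, which includes *HXT7*, part of a near-identical pair that uniquely mapped reads cover poorly. *SUC2*, which encodes invertase, was lower in *ncs2*Δ*elp6*Δ than in wild type at -1.10 (SE 0.37, adjusted p = 0.0254), from 27.9, 39.1 and 56.3 CPM in *ncs2*Δ*elp6*Δ against 68.1, 109 and 94.7 CPM in wild type. *GLK1*, the glucokinase, was at -0.050 (SE 0.32, adjusted p = 0.927).

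In the list of glucose sensing and repression, 19 of 20 genes were tested, and 1 rose and 1 fell in *ncs2*Δ*elp6*Δ against wild type (30.1% of all genes called, 13.4% higher and 16.7% lower). *REG1*, which encodes the subunit that directs the Glc7 phosphatase to the Snf1 kinase, fell by 1.60 on the log2 scale (SE 0.24, adjusted p = 1.17e-05), with 526, 566 and 652 CPM in *ncs2*Δ*elp6*Δ against 1357, 2039 and 1915 CPM in wild type. *ELM1*, one of the kinases that activate Snf1, rose by 1.2 (SE 0.43, adjusted p = 0.0348). The median of the 19 was -0.079, beside 0.042 over all genes. The genes between the sensors and the *HXT* promoters, *YCK1*, *YCK2*, *GRR1*, *STD1* and *RGT1*, were at 0.17, 0.45, -0.12, 0.21 and -0.18, and none passed the test. Of the 19, 0 rose and 2 fell in *ncs2*Δ*elp6*Δ*hel2*Δ, both against wild type and against *hel2*Δ: *REG1* (-0.96 and -0.94) and *TOS3*, another Snf1-activating kinase (-1.45 and -1.32). Of all genes tested, 11.1% were called in *ncs2*Δ*elp6*Δ*hel2*Δ against wild type and 14.6% against *hel2*Δ.

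Of 17 genes reported here of cAMP signalling and protein kinase A, the other route by which yeast responds to glucose, 15 were tested, and 2 of these rose in *ncs2*Δ*elp6*Δ against wild type, a share close to the 13.4% of all genes that were called higher. *RAS2*, a GTPase that activates adenylate cyclase, rose by 1.39 (SE 0.30, adjusted p = 8.61e-04). *TPK3*, which encodes a catalytic subunit of the kinase, rose by 1.32 (SE 0.32, adjusted p = 0.00295). *RAS2* was the 1 gene of the 15 called in *ncs2*Δ*elp6*Δ*hel2*Δ against wild type (1.35, adjusted p = 0.00495) and against *hel2*Δ (1.05, adjusted p = 0.0198). Over all genes tested the calls there were 11.1 and 14.6%. In *hel2*Δ against wild type, in *ncs2*Δ*elp6*Δ*hel2*Δ against *ncs2*Δ*elp6*Δ and for the interaction, 0 of the genes reported from these 3 lists were called by edgeR. The shares of all genes called were 0.0888, 5.68 and 0.0296%.

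**Figure D4:**
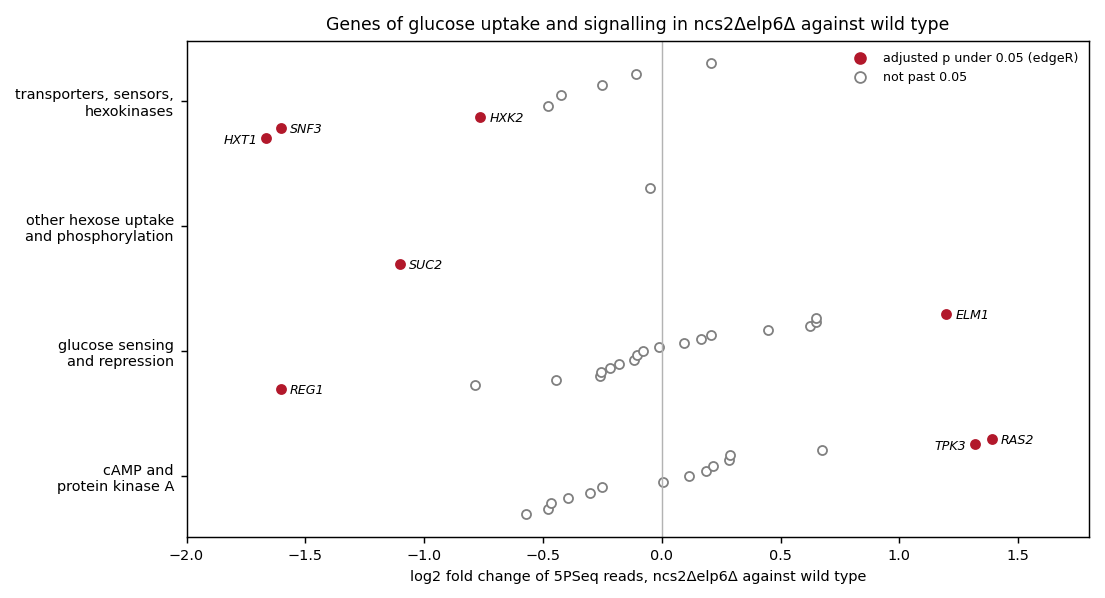
Log2 fold changes of 5PSeq reads in *ncs2*Δ*elp6*Δ against wild type (x axis) for the 8 members tested and the tested genes reported from 3 lists (rows; 2, 19 and 15 genes), 1 point per gene, filled and named where adjusted p was under 0.05. Called genes lie below 0 among the members and on both sides of 0 in the glucose-repression list.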

How the data were processed

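Per the labels and the methods, reads were trimmed with cutadapt, reads of noncoding RNA were removed with STAR 2.5.3a, and the rest was aligned to the sense strand of annotated open reading frames (sacCer3) with Bowtie 1.2.3, keeping unique alignments. UMI-tools collapsed duplicates by random barcode. The deposited values are raw counts of such reads per gene, which lowers near-identical transporters. Members were matched by symbol. RNA-seq was not used here. Counts were tested in R 4.3.3 with edgeR 4.0.16 (TMM, filterByExpr with a minimum count of 10, glmQLFit and glmQLFTest) over all 12 libraries with strain as the only factor, and called at an adjusted p under 0.05. SE is the log2 fold change divided by the root of F. DESeq2 1.42.0, other scalings, filters, a replicate block and leaving out each library were alternatives. On simulated counts (*ncs2*Δ*elp6*Δ against wild type, 3263 genes) edgeR called 56 of 100 2-fold and 89 of 100 3-fold changes, and 7 of 3063 unchanged genes. The 200 changed genes were drawn from those with a mean of at least 10 reads per library. These rates therefore do not cover genes with fewer reads, or data in which a larger share of genes changes. Nothing states that replicates were separate cultures, so p-values measure the spread between these libraries. Replicates differed by more than sampling noise (chi-square per degree of freedom 2.29 to 6.58). The numbers shared by replicates were not taken as pairing. All 10 members and listed genes passing the threshold, at most 4 per list and comparison, were named. One listed gene of cAMP signalling is not reported here and was left out of that list and its counts. The 2 most alike genes were named for each called member. Members and lists were chosen with earlier results of these data known.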

Additional observations from a re-analysis of the deposited data

How the results depend on the processing

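Of 653 member fold changes recomputed, 594 kept their direction and side of the threshold, 17 lost a call, 6 gained one and 36 changed sign, none of the 36 being a called value. *HXT1* and *SNF3* in *ncs2*Δ*elp6*Δ against wild type were called in each alternative that tested them. With 10 counts required in every library only *HXK2* of the members was tested, and calls were 553 genes in *ncs2*Δ*elp6*Δ and 241 in *ncs2*Δ*elp6*Δ*hel2*Δ against wild type and 308 in *ncs2*Δ*elp6*Δ*hel2*Δ against *hel2*Δ, with 1 member, *HXK2*, in each of these, and 0 genes for the interaction. Fewer genes enter that fit. Elsewhere the cause was not tested.

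Scaling by library totals alone raised the median of all genes by 0.25, 0.16 and 0.18 in *ncs2*Δ*elp6*Δ against wild type, *ncs2*Δ*elp6*Δ*hel2*Δ against wild type and *ncs2*Δ*elp6*Δ*hel2*Δ against *hel2*Δ. The higher genes were then 62.9, 62.9 and 65.9% of the calls, against 44.6, 43.9 and 44.1% with TMM and 39, 35 and 34.9% with DESeq2. With library totals 0 members were called in *ncs2*Δ*elp6*Δ*hel2*Δ against wild type. Against *hel2*Δ 1 was called, *HXK2*, while *SNF3* lost its call (-0.84, adjusted p = 0.0862). DESeq2 without independent filtering called 1 member in *ncs2*Δ*elp6*Δ*hel2*Δ against *hel2*Δ, *HXK2*, and *SNF3* lost its call (-1.08, adjusted p = 0.0549). Fitting only the strains compared called 0 members in *ncs2*Δ*elp6*Δ*hel2*Δ against wild type (*HXK2* at -0.78, adjusted p = 0.0782) and 126 genes against *ncs2*Δ*elp6*Δ, beside 192 in the fit of all strains. Without the low-count filter 311 genes and 1 member (*HXT1*) were called in *ncs2*Δ*elp6*Δ*hel2*Δ against *ncs2*Δ*elp6*Δ, and 26 for the interaction, where DESeq2 called 41 (97.6% of them higher) and edgeR 1.

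With the replicate number as a block, *HXT1* was called in *ncs2*Δ*elp6*Δ*hel2*Δ against *ncs2*Δ*elp6*Δ (1.17, adjusted p = 0.0402), which made 1 member called there. No other member's call changed, and the calls over all genes were 2, 959, 321, 181, 418 and 1, beside 3, 1016, 374, 192, 492 and 1 without it (*hel2*Δ, *ncs2*Δ*elp6*Δ and *ncs2*Δ*elp6*Δ*hel2*Δ against wild type, *ncs2*Δ*elp6*Δ*hel2*Δ against *ncs2*Δ*elp6*Δ and against *hel2*Δ, and the interaction). The correlation of same-numbered libraries was over 0.1, the value taken as pairing, in every pair of 0 comparisons. For *ncs2*Δ*elp6*Δ*hel2*Δ against *ncs2*Δ*elp6*Δ, where the correlations were all above 0 (0.085, 0.27 and 0.22), 6 of 6 libraries correlated best with their own number, which is a hint from the data and not from the design. In the other comparisons 0 of 6 did.

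Leaving out 1 library at a time gave 1 to 2 genes called in *hel2*Δ against wild type and 775 to 994 (2 to 3 members) in *ncs2*Δ*elp6*Δ against wild type. For *ncs2*Δ*elp6*Δ*hel2*Δ it gave 145 to 501 (0 to 2 members) against wild type, 38 to 399 (0 to 2 members) against *ncs2*Δ*elp6*Δ and 129 to 650 (0 to 2 members) against *hel2*Δ. For the interaction it gave 1 to 92 genes (0 to 1 member). The 92 and 399 calls, and the lowest counts of 145 and 129, came without *ncs2*Δ*elp6*Δ*hel2*Δ replicate 2, the deepest library, and the 38, 501 and 650 without its replicate 3. Calls also fell by over 1.5 times without wild-type replicates 2 and 3 (222 and 191, *ncs2*Δ*elp6*Δ*hel2*Δ against wild type), *ncs2*Δ*elp6*Δ replicates 1 and 2 (109 and 75, *ncs2*Δ*elp6*Δ*hel2*Δ against *ncs2*Δ*elp6*Δ), and *hel2*Δ replicates 1 and 2 and *ncs2*Δ*elp6*Δ*hel2*Δ replicate 1 (170, 311 and 323, *ncs2*Δ*elp6*Δ*hel2*Δ against *hel2*Δ).

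Fold changes near 0 changed sign. In *hel2*Δ against wild type the values without 1 library ran from -0.58 to 0.052 for *HXT2*, -0.61 to 0.0090 for *HXT3*, -0.32 to 0.57 for *HXK1* and -0.022 to 0.44 for *HXK2*. For *ncs2*Δ*elp6*Δ against wild type they ran from -0.61 to 0.057 for *HXT2*, -0.30 to 0.36 for *HXT3* (0.14 with library totals alone), -0.020 to 0.41 for *RGT2* and -0.61 to 0.021 for *HXK1*. For *ncs2*Δ*elp6*Δ*hel2*Δ against wild type they ran from -0.27 to 0.34 for *HXT2*, -0.38 to 0.22 for *HXT3*, -0.49 to 0.10 for *MTH1* and -0.24 to 0.50 for *HXK1* (-0.049 with DESeq2, with and without independent filtering, and -0.015 with the replicate block). Between *ncs2*Δ*elp6*Δ*hel2*Δ and *ncs2*Δ*elp6*Δ they ran from -0.22 to 0.11 for *HXT3*, -0.13 to 0.63 for *MTH1* and -0.16 to 0.079 for *HXK2*. Between *ncs2*Δ*elp6*Δ*hel2*Δ and *hel2*Δ they ran from -0.084 to 0.62 for *HXT1* and -0.38 to 0.38 for *HXK1* (0.12 with library totals alone). For the interaction they ran from -0.14 to 0.53 for *HXT3*, -0.17 to 0.30 for *RGT2* and -0.086 to 0.75 for *HXK1*. Depth limits the precision of these values, since the 8 members tested had a median of 20 reads per library.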
